A study of Mus musculus with 34 samples.

Results

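Branched-chain amino acid (BCAA) catabolism was followed in the left ventricle (LV) of mice after myocardial infarction (MI) through 10 genes of the mitochondrial pathway, Bcat2, Bckdha, Bckdhb, Dbt, Ivd, Mccc1, Mccc2, Pcca, Pccb and Hibadh. They were taken by their gene symbols, and all 10 were found among the 14552 genes of a first table of 10 libraries and among the 17406 genes of a second table of 24 libraries. Expression is given in CPM (counts scaled to the library), the authors' normalized read counts, and the 2 tables were normalized separately, so each was tested on its own.

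All mice were CFW mice, the left anterior descending artery was tied off for good to cause MI, and each library is labelled as a separate sample of the LV. Nothing in the labels says that each came from a mouse of its own, so p-values measure the spread between libraries, part of which may be technical. The first table holds 3 sham libraries (D, H and I), 3 libraries at 4 h post-MI (C, D and E) and 4 at 24 h post-MI (C, D, G and H), all without injection. The study's methods say that the ischemic part of the ventricle was taken, and a matching part from sham hearts, while the labels give the sham mice no operation at all. The second table holds 2 sham-operated libraries at 4 h without injection, and hearts that received a modified mRNA (modRNA) in the border zone at the time of ligation, either AC or the Luc control, which encodes luciferase. There were 4 AC and 4 Luc libraries at 4 h, 3 and 3 at 24 h, and 4 and 4 at 48 h. The labels do not spell out AC and give no age or sex, and every ligated heart of the second table was injected. Sham mice and the 4 h hearts share a naming series in the second table, the 24 h hearts have titles of another form and the 48 h hearts a series of their own, so that the time post-MI and the naming series cannot be told apart.

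BCAA catabolism begins with the transfer of the amino group of leucine, isoleucine or valine to 2-oxoglutarate, which the mitochondrial aminotransferase Bcat2 catalyses. The resulting branched-chain keto acids are committed to oxidation by the branched-chain keto acid dehydrogenase (BCKDH) complex, whose E1 subunits are encoded by Bckdha and Bckdhb and whose E2 core is encoded by Dbt. The kinase Bckdk switches the complex off by phosphorylation and the phosphatase Ppm1k switches it on. The arms then part, with leucine passing through Ivd and methylcrotonyl-CoA carboxylase (Mccc1 and Mccc2), valine through Hibadh, and isoleucine and valine joining at propionyl-CoA carboxylase (Pcca and Pccb). Heart muscle is known to hold much of this pathway, and Klf15 is known there as a transcription factor of BCAA genes.

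On mm10, the build of the deposited coordinates, Bcat2 lay at chr7:45570153-45589710 on the plus strand, Bckdha at chr7:25629852-25658761 on the minus strand, Bckdhb at chr9:83925137-84124240 on the plus strand and Dbt at chr3:116513079-116549981 on the plus strand. Ivd lay at chr2:118862000-118881357 on the plus strand, Mccc1 at chr3:35959306-36000678 on the minus strand, Mccc2 at chr13:99948532-100015639 on the minus strand, Pcca at chr14:122534328-122889944 on the plus strand, Pccb at chr9:100982032-101034884 on the minus strand and Hibadh at chr6:52546230-52640300 on the minus strand. In GENCODE M21, exons of Bcat2 overlapped the antisense gene 0610005C13Rik, exons of Bckdha overlapped B3gnt8, exons of Mccc1 overlapped Mccc1os, Gm15952 and B230207O21Rik, and exons of Pcca overlapped Ggact, all on the opposite strand. The labels name a strand-specific library kit, but whether strand was used in counting is not given in the sources used here, so reads from the shared stretches of these 4 genes and their opposite-strand partners cannot be told apart. The largest overlap between a pair of exons was 247 bases in Bcat2, 488 in Bckdha and 241 in Pcca. An exon of Hibadh shared 122 bases with the snoRNA gene Gm24355 on the same strand.

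The RefSeq promoter sequences on GRCm38.p6 held the 250 bases before the start of 9 of the 10 genes. Dbt had no entry. The CCAAT box, searched as CCAAT on both strands, was present in 6 of these 9 windows, against 33.8% of 32851 mouse promoters of the same length. The GC box, searched as GGGCGG on both strands, was in 4 of 9, against 32.7%, and the half-site of estrogen-related receptors, searched as AAGGTCA on both strands, was in 0 of 9, against 4.08%. The windows are shown for the 3 genes with the largest falls at 24 h post-MI and for 2 of the 3 with the smallest, 5′ to 3′, with the CCAAT and GC boxes of either strand in capitals. They end where GENCODE M21 places the nearest exon of the same gene, and the window of Bckdha, the other gene of small fall, is left out because an exon covers most of it.

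Mccc2, chr13:100015640-100015889, minus strand: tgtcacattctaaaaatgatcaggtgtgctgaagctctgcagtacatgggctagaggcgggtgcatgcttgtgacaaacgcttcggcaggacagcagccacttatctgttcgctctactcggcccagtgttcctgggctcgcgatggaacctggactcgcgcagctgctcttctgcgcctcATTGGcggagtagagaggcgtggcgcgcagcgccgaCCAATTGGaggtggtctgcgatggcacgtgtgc

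Ivd, chr2:118861744-118861953, plus strand: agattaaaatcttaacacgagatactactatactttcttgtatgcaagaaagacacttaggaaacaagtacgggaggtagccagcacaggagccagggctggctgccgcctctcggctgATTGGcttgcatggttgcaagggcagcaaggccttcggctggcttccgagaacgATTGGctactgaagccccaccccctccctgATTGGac

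Pcca, chr14:122534078-122534323, plus strand: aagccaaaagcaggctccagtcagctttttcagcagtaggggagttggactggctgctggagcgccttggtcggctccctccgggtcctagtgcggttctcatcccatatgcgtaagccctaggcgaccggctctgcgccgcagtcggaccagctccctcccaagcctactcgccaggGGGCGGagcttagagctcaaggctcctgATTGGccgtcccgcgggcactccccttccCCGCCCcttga

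Bcat2, chr7:45569903-45570152, plus strand: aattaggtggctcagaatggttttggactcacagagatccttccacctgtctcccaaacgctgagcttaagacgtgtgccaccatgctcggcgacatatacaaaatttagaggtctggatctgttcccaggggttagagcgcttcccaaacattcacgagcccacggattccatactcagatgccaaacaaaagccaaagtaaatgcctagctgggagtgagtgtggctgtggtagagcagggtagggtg

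Pccb, chr9:101034899-101035134, minus strand: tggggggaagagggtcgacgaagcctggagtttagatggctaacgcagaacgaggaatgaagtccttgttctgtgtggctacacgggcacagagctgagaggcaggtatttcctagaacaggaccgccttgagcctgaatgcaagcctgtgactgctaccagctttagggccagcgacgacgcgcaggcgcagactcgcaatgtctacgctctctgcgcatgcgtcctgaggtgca

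Mccc2 held 3 CCAAT boxes, the nearest beginning 30 bases before the start. They are not 3 separate sites, since the stretch CCAATTGG reads as a CCAAT box on each strand and was counted for both. The stretch of Ivd shown held 3, the nearest beginning 47 bases before the start of the RefSeq transcript. Pcca held 1 CCAAT box at 44 bases before the start and 2 GC boxes. The stretches of Bcat2 and Pccb held neither motif, and that of Bcat2 is also covered by the antisense gene 0610005C13Rik. The CCAAT box was present in Bckdhb, Ivd, Mccc1, Mccc2, Pcca and Hibadh. It was absent from Bcat2, Bckdha and Pccb, and these 3 were also the genes of smallest fall at 24 h. Of the window of Bckdha, however, only 30 bases lay before its exons. Bcat2 had 2 windows on record, and that at its deposited start was read. Among the regulators, the window of Bckdk held 1 CCAAT box, although its log2 change of -0.59 was no larger than that of Bckdha. The windows of Ppm1k (log2 change -2.44) and Klf15 (-1.71) held 2 and 1. This is a description of 9 windows, read with the changes of these genes already known and with no test.

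Compared per length of transcript in sham LV, the genes of the pathway were not expressed alike. Hibadh (125 ± 10.2 CPM per kb, SD, n = 3) and Bckdha (109 ± 7.58) stood highest, and their libraries overlapped. Ivd followed with 68.0 ± 2.76 CPM per kb, above every library of the genes below it. Bcat2 (43.0 ± 0.599), Pccb (41.0 ± 3.97) and Bckdhb (38.4 ± 5.08) overlapped each other. Mccc2 (25.1 ± 1.05), Pcca (24.6 ± 1.89) and Dbt (21.6 ± 1.32 CPM per kb) stood lower, Dbt below every library of Mccc2 but overlapping with Pcca, and Mccc1 was lowest with 13.3 ± 2.37 CPM per kb. In CPM, the lowest value of any of the 10 genes in the first table was 12.9, equal to about 343 estimated reads in that library, and all 10 passed the filter of a mean of 1 CPM in both tables.

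To ask how the pathway responds to infarction, hearts at 4 h and 24 h post-MI were compared with sham hearts. At 4 h post-MI, 0 of the 10 genes passed limma's test, and 0 had an unadjusted p under 0.05. Of all 12487 genes tested, 2.37% were called in either direction at that time. The 10 log2 changes at 4 h lay between -0.09 for Ivd and 0.11 for Bckdhb, with a median of 0.06.

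At 24 h post-MI, all 10 genes fell. Of all genes, 30.3% were called lower in the same comparison, with a median log2 change of 0.04, against a median of -0.88 for the 10 genes. Every 24 h library lay below every sham library for 10 of 10 genes, which 28.7% of all genes did. The ratio of the group means lay between 0.355 for Mccc2 and 0.764 for Bcat2. All 10 were also called lower at 24 h than at 4 h, where 26.7% of all genes were.

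**Figure D1:**
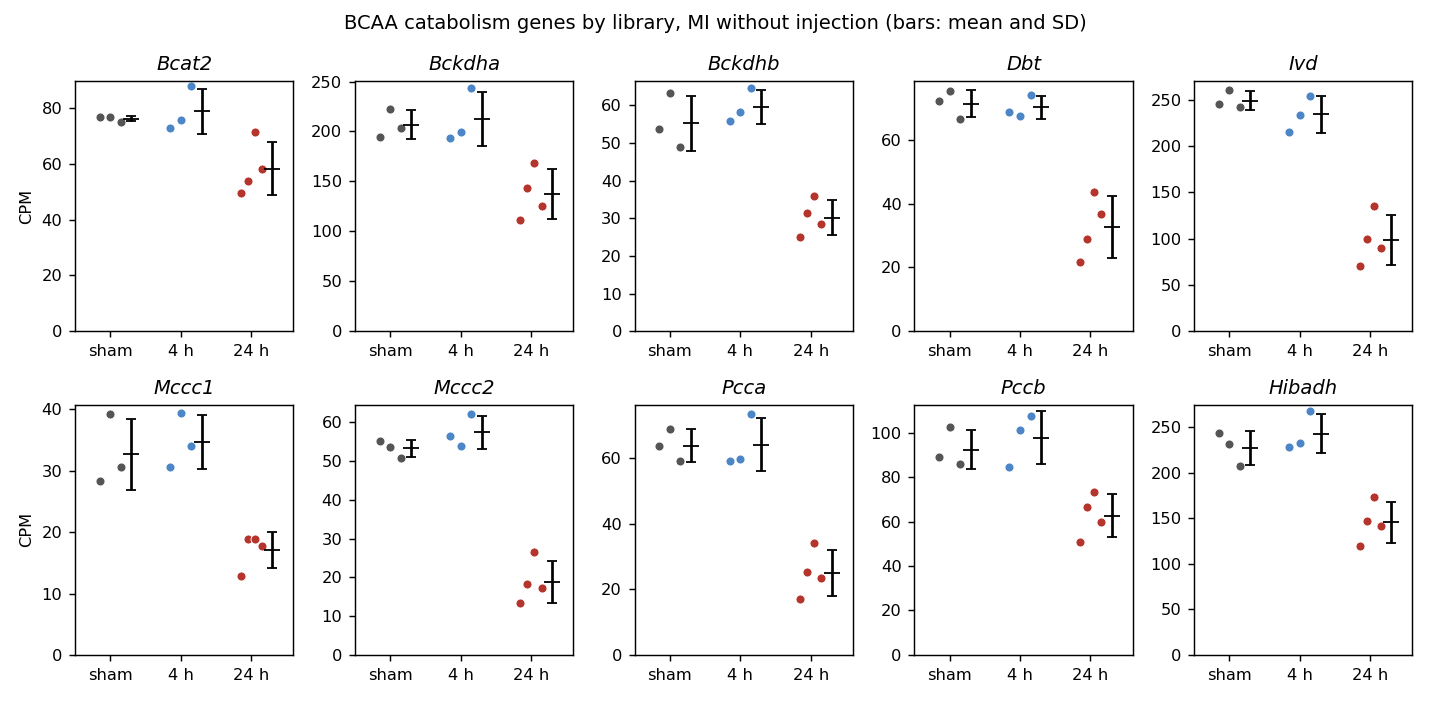
CPM of the 10 genes in each library of sham, 4 h and 24 h post-MI hearts without injection, with points for libraries and bars for the mean ± SD. The sham and 4 h points share a range in every panel and the 4 points at 24 h lie below them, with Mccc2 falling from a mean of 53.3 to 18.9 CPM and Bcat2 from 76.3 to 58.2 CPM.

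Bcat2, the aminotransferase, moved least. It was at 76.8, 77.0 and 75.0 CPM in the sham libraries D, H and I and at 72.7, 75.9 and 87.8 CPM at 4 h, and at 49.6, 53.7, 71.4 and 58.3 CPM in the 24 h libraries C, D, G and H. Library G came close to the sham values while the other three stood clearly lower. The log2 change was -0.40 ± 0.12 (SE, adjusted p = 0.0136).

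All 3 measured subunits of the BCKDH complex fell, the E1 alpha subunit least and the E2 core most by the fitted values. Bckdha, the E1 alpha subunit, went from 194, 223 and 203 CPM in sham to 111, 144, 169 and 126 CPM at 24 h, a log2 change of -0.60 ± 0.14 (adjusted p = 0.00303). Bckdhb, the E1 beta subunit, went from 53.7, 63.2 and 48.8 CPM to 24.9, 31.4, 36.0 and 28.5 CPM, a log2 change of -0.85 ± 0.13 (adjusted p = 0.000156). Dbt, the E2 dihydrolipoyl transacylase, went from 72.2, 75.1 and 66.6 CPM to 21.5, 28.8, 43.7 and 36.8 CPM, a log2 change of -1.15 ± 0.19 (adjusted p = 0.00025). The groups did not overlap for any of these 3 subunits.

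The leucine arm held the largest fall. Ivd, isovaleryl-CoA dehydrogenase, was at 245, 261 and 242 CPM in sham and at 70.3, 99.2, 136 and 89.9 CPM at 24 h, so that the mean fell by 60.4%, with a log2 change of -1.37 ± 0.18 (adjusted p = 4.42e-05). Mccc2, the beta subunit of methylcrotonyl-CoA carboxylase, was at 55.3, 53.6 and 50.9 CPM in sham and at 13.5, 18.3, 26.5 and 17.3 CPM at 24 h, a log2 change of -1.48 ± 0.17 (adjusted p = 1.95e-05). Mccc1, the biotin-carrying alpha subunit of the same enzyme, was at 28.3, 39.3 and 30.5 CPM in sham and at 12.9, 18.9, 18.9 and 17.8 CPM at 24 h, a log2 change of -0.90 ± 0.16 (adjusted p = 0.000398).

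Propionyl-CoA carboxylase, which receives the carbon of isoleucine and valine, fell in both of its subunits. Pcca, the biotin-carrying alpha subunit, was at 63.6, 68.7 and 58.9 CPM in sham and at 17.1, 25.2, 34.2 and 23.4 CPM at 24 h, a log2 change of -1.36 ± 0.18 (adjusted p = 6.44e-05). Pccb, the beta subunit, was at 88.8, 103 and 85.8 CPM in sham and at 50.9, 66.6, 73.5 and 59.8 CPM at 24 h, a log2 change of -0.56 ± 0.13 (adjusted p = 0.00326). Hibadh, the 3-hydroxyisobutyrate dehydrogenase of the valine arm, was at 244, 231 and 207 CPM in sham and at 119, 147, 174 and 142 CPM at 24 h, a log2 change of -0.65 ± 0.13 (adjusted p = 0.000928).

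The 24 h libraries kept an order among themselves. Library C held the lowest value of all 10 genes, and library G the highest value of 9. The summed level of 11 cardiomyocyte markers was lowest in library C (30297 CPM) and highest in library G (48503 CPM), and the summed level of 10 neutrophil and monocyte markers was highest in library C (2604 CPM) and lowest in library G (645 CPM). The summed CPM of all genes was also lowest in library C (568058) and highest in library G (662286). Other groups held an order too. At 4 h post-MI, library C was lowest for 8 genes and library E highest for 9. In sham, library I was lowest for 8 and library H highest for 8. Over the groups, the cardiomyocyte sum ranged from 68862 to 74506 CPM in sham and from 30297 to 48503 CPM at 24 h, where 6 of the 11 markers were called lower and 1 higher. The neutrophil and monocyte sum ranged from 71.6 to 136 CPM in sham and from 645 to 2604 CPM at 24 h, with 10 of 10 markers called higher. No marker of either list was at 0 in all libraries of a group. The part of cell composition in the fall of the 10 genes was not tested, and in bulk tissue fewer cells of a type and less RNA per cell cannot be told apart.

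The other lists of mitochondrial oxidation fell in the same comparison. Of 14 genes of the tricarboxylic acid cycle, 13 were called lower with a median log2 change of -0.60, and of 12 genes of fatty acid oxidation, 11 were called lower with a median of -0.74. The median of the cardiomyocyte markers was -0.58, with a range from -2.44 to 0.41. These lists were described by counts and medians only, and no difference between them and the 10 genes was tested.

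**Figure D2:**
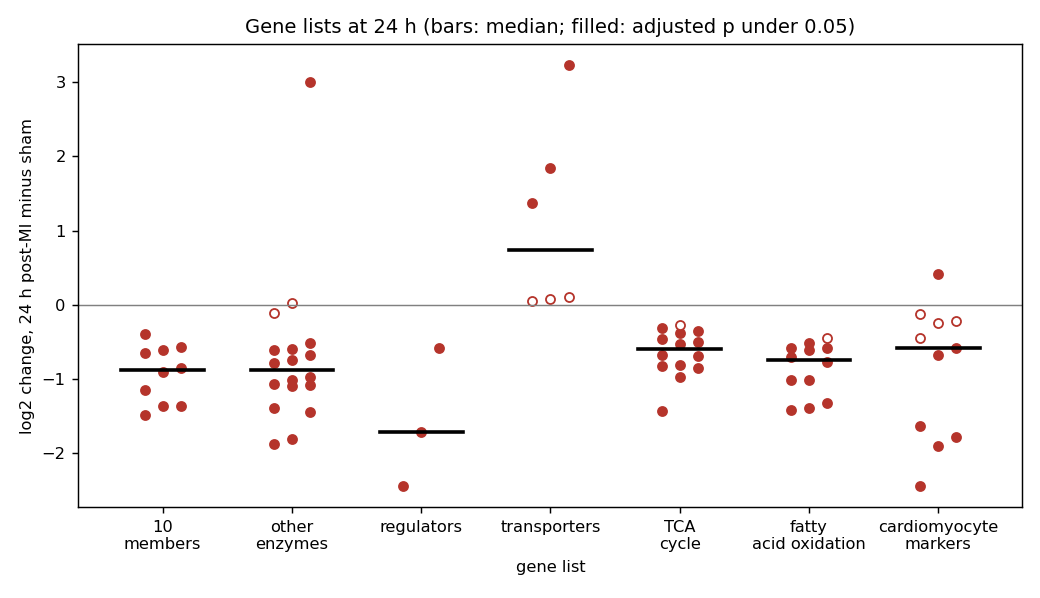
Log2 change at 24 h post-MI against sham for each gene of 7 lists, with filled points for an adjusted p under 0.05 and a bar for the median. The 10 genes and the other enzymes share a median of -0.88, the 3 regulators stand lower at -1.71, and the transporters stand above 0 at a median of 0.74.

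Beyond the 10 genes, 18 further enzymes of the pathway were measured, and at 24 h post-MI 15 were called lower, 1 higher and 2 neither. The lowest were Mmab and Mut, which prepare the cobalamin cofactor of methylmalonyl-CoA mutase and encode the mutase itself. Mut went from 160 ± 8.88 CPM in sham (SD, n = 3) to 46.0 ± 11.1 CPM at 24 h (n = 4), a log2 change of -1.80 ± 0.16 (SE, adjusted p = 2.62e-06), and Mmab from 35.9 ± 3.39 to 9.10 ± 1.36 CPM, a log2 change of -1.87 ± 0.13 (adjusted p = 7.43e-07). Aldh6a1, the methylmalonate semialdehyde dehydrogenase of the valine arm, fell by 1.44 on the log2 scale. Hsd17b10, a dehydrogenase of the isoleucine arm, was not called (log2 change -0.11 ± 0.10, adjusted p = 0.348). Echs1, an enoyl-CoA hydratase, fell by 0.52.

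Bcat1, the cytosolic aminotransferase that is prominent outside muscle, moved the other way. Its mean rose from 0.99 ± 0.11 CPM in sham to 15.2 ± 4.10 CPM in the 24 h libraries, with 1.31 ± 0.44 CPM at the earlier time, a log2 change of 3.0 ± 0.19 (adjusted p = 3.55e-07). It is the only gene among the 18 that rose, and it is named here after its value was seen.

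Of the amino acid carriers, 3 of 6 rose at 24 h and 0 fell, where 35.6% of all genes were called higher. Slc7a5, the large neutral amino acid transporter LAT1, went from 4.54 ± 0.57 CPM in sham to 51.2 ± 6.91 CPM, a log2 change of 3.23 ± 0.18 (adjusted p = 2.23e-07). Slc3a2, the heavy chain that partners it at the plasma membrane, went from 28.1 ± 3.06 to 104 ± 15.5 CPM (log2 change 1.85 ± 0.16), and Slc7a8, a related light chain, from 2.17 ± 0.26 to 7.30 ± 1.33 CPM (log2 change 1.38 ± 0.14). Slc43a1, Slc43a2 and the mitochondrial BCAA carrier Slc25a44 had log2 changes of 0.05, 0.11 and 0.08 with adjusted p values of 0.835, 0.514 and 0.585.

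The 3 regulators all fell at 24 h. Ppm1k, the phosphatase that activates BCKDH, was at 68.3, 96.0 and 86.9 CPM in the sham libraries and at 9.53, 13.4, 27.7 and 12.1 CPM in the 24 h libraries, a log2 change of -2.44 ± 0.27 (adjusted p = 1.5e-05) beyond the -1.48 of Mccc2, although that difference was not tested. Bckdk, the opposing kinase, was at 63.4, 71.5 and 65.6 CPM in sham and at 35.8, 46.9, 51.4 and 44.0 CPM at 24 h, a log2 change of -0.59 ± 0.13 (adjusted p = 0.00158). Klf15 was at 41.3, 44.9 and 30.5 CPM in sham and at 7.39, 13.6, 16.6 and 8.83 CPM at 24 h, a log2 change of -1.71 ± 0.25 (adjusted p = 0.000112). For none of these 3 genes did the 24 h libraries overlap with sham.

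Ratios of genes whose products work together were then taken within each library, where the scaling cancels. They are ratios of CPM, in which gene length does not cancel, so only their differences between groups are free of it. Per kb, Ppm1k stood at 15.1 and Bckdk at 19.6 CPM in sham. Over 6 ratios, a two-sided exact permutation test of 4 against 3 libraries has 35 splits and cannot give a p under 0.0286, and after adjustment over the 6 ratios none passed 0.05. The ratio of Pcca to Pccb was between 0.670 and 0.716 in sham and between 0.335 and 0.465 at 24 h, a log2 difference of -0.83 ± 0.10 (SE, exact permutation p = 0.0286, adjusted 0.0571), with no overlap. The ratio of Bckdhb to Bckdha was between 0.240 and 0.284 in sham and between 0.213 and 0.227 at 24 h, a log2 difference of -0.27 ± 0.08 (exact permutation p = 0.0286, adjusted 0.0571). The ratio of Ppm1k to Bckdk was between 1.08 and 1.34 in sham and between 0.266 and 0.538 at 24 h, a log2 difference of -1.93 ± 0.26 (exact permutation p = 0.0286, adjusted 0.0571).

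The other 3 ratios had larger p values. Dbt to Bckdha had a log2 difference of -0.57 ± 0.15 without overlap (exact permutation p = 0.0571, adjusted 0.0857), and Mccc1 to Mccc2 by 0.60 ± 0.20 on the log2 scale with overlap (exact permutation p = 0.0857, adjusted 0.103). The ratio of the kinase Bckdk to its substrate subunit Bckdha was between 0.321 and 0.326 in sham and between 0.305 and 0.350 at 24 h, a log2 difference of 0.01 ± 0.04 (exact permutation p = 0.714).

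**Figure D3:**
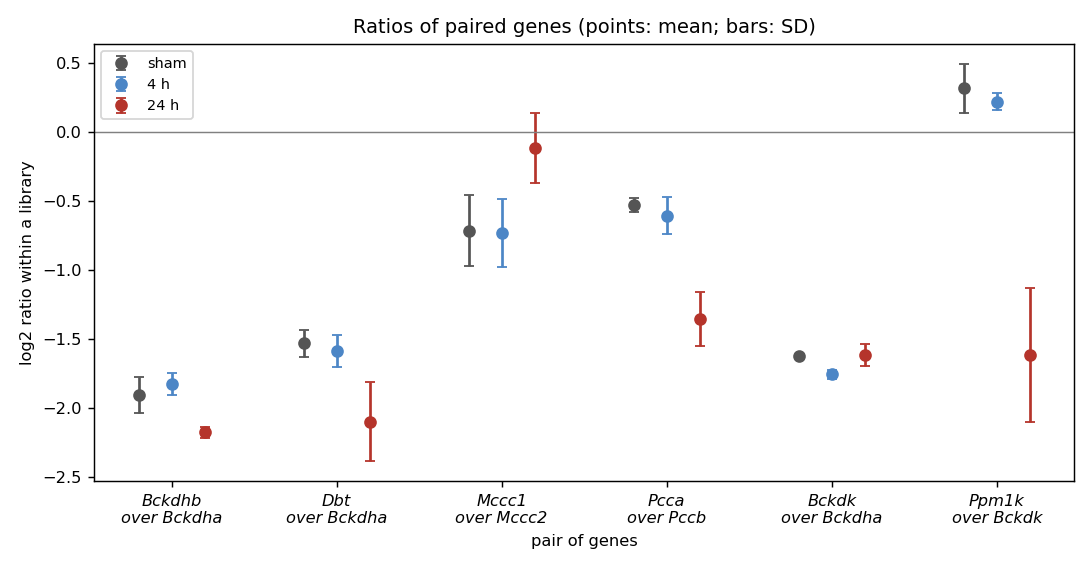
Mean log2 ratio of 6 gene pairs within a library, with SD bars, in sham, 4 h and 24 h post-MI hearts without injection. Ppm1k over Bckdk drops from a mean of 0.31 in sham to -1.62 at 24 h and Pcca over Pccb from -0.53 to -1.36, while Bckdk over Bckdha is at -1.63 in sham, -1.76 at 4 h and -1.62 at 24 h.

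Among the genes of most similar pattern over the 10 libraries, measured as the Pearson correlation with the mean standardized level of the 10 genes among 7600 candidates, were Vdac3 (r = 0.997), Vdac1 (0.995), Mdh1 (0.995) and Ndufs1 (0.994). These correlations describe 10 libraries that share a split between 24 h and the rest. Ndufs1, a core subunit of respiratory complex I, had a log2 change of 0.04 at 4 h and of -0.92 at 24 h (adjusted p = 0.000523).

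The second table allowed the same question to be asked in hearts injected with Luc modRNA, against the 2 sham libraries of that table. At 4 h, 0 of the 10 genes passed limma's test and 1 had an unadjusted p under 0.05, and 1.55% of all 12555 genes tested were called in either direction. That gene was Bckdha, with a log2 change of 0.62 ± 0.21 (adjusted p = 0.177).

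At 24 h with Luc, 2 of the 10 genes were called, 1 higher and 1 lower, against 34.1% of all genes in either direction. Bckdha was at 111 and 152 CPM in the sham libraries and at 272, 295 and 343 CPM in the Luc libraries A, C and D, a log2 change of 1.21 ± 0.22 (adjusted p = 0.000326). Pcca was at 97.2 and 91.4 CPM in sham and at 68.5, 73.2 and 74.5 CPM with Luc, a log2 change of -0.38 ± 0.12 (adjusted p = 0.0209). For both genes the Luc libraries stood apart from sham. Of the 10 genes, 3 had every Luc library below both sham libraries and 3 above. Of all 12555 genes, 2323 lay below and 4701 above in this way. Other markers differed in this comparison. Of the 11 cardiomyocyte markers, only Myh6 was called higher (log2 change 0.84) and only Pln lower (-0.79). The sum of these 11 markers ranged from 88646 to 109686 CPM with Luc and from 76241 to 78300 CPM in sham, without overlap. Of the neutrophil and monocyte markers 7 of 10 were called higher, and of the fibroblast markers 3 of 7. Lyz2 (-0.82) and Ccr2 (-0.06) of the first list and Col3a1 (-0.74) and Lum (-0.32) of the second had negative changes and were not called. The neutrophil and monocyte sums overlapped, from 135 to 215 CPM with Luc and from 97.4 to 176 CPM in sham. The fibroblast sums did not, from 935 to 1417 CPM with Luc and from 789 to 861 CPM in sham. The atrial gene Myl7 was listed at 17.0 to 61.3 CPM with Luc against 0.095 CPM or less in sham. The part of these markers in the result was not tested. The median log2 change of the 10 genes was -0.11 and that of all genes 0.16, and of all called genes 25.8% were lower, against 47.2% under median-ratio rescaling and 57.5% under equal totals. Of the 10 genes, 2 were called lower and 1 higher under median-ratio rescaling (median -0.30), and 4 lower and 1 higher under equal totals (median -0.41), so the count of genes that fell by 24 h with Luc depended on the scaling. The call of Pcca was lost without Luc library A and without sham library 1, where 1 of the 10 genes was called. Bckdha was the single gene of the 10 that was called higher at 24 h than at 4 h with Luc (log2 change 0.59 ± 0.19, adjusted p = 0.019), where 24.5% of all genes were, and it was lost without Luc library 2 or 3 of 4 h or library D of 24 h. Under either rescaling of the libraries Bckdha was not called there (0.42 and 0.37 on the log2 scale) and 4 of the 10 genes were called lower.

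At 48 h with Luc, 8 of the 10 genes were lower than sham, against 16.4% of all genes, and the same number had every Luc library below both sham libraries, against 21.6% of all genes. Without sham library 1, 5 of the 10 were called, and 5 were called where the 2 groups were fitted alone. With a block for the library number 1 was called, although the labels do not say that the numbers pair the libraries. In the same comparison the summed cardiomyocyte markers ranged from 76241 to 78300 CPM in sham and from 48213 to 67040 CPM with Luc, with 3 of 11 called lower. The summed neutrophil and monocyte markers ranged from 97.4 to 176 CPM in sham and from 308 to 674 CPM with Luc, with 9 of 10 called higher, and the part of these markers in the fall was not tested. The mean of Pccb fell by 28.5% and that of Pcca fell by 58.7%, the ends of the range over these 8 genes. Bcat2 and Bckdha were not called, with log2 changes of -0.10 ± 0.17 and 0.09 ± 0.21 (adjusted p = 0.674 and 0.776).

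Pcca was again among the genes of largest fall, at 45.7, 36.5, 35.8 and 37.9 CPM in the Luc libraries 1 to 4 of 48 h against 97.2 and 91.4 CPM in sham (log2 change -1.26 ± 0.12, adjusted p = 3.15e-07). Bckdhb was at 46.2, 37.8, 33.1 and 31.6 CPM against 79.4 and 73.8 CPM in sham (log2 change -1.04 ± 0.15, adjusted p = 3.83e-05). Mccc2 was at 32.6, 32.5, 25.3 and 34.6 CPM against 63.9 and 60.3 CPM (log2 change -0.98 ± 0.15, adjusted p = 7.26e-05). In all 3 genes the sham and Luc libraries were far apart. The other called genes were Hibadh (-0.80), Mccc1 (-0.73), Ivd (-0.72), Dbt (-0.59) and Pccb (-0.49 on the log2 scale).

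**Figure D4:**
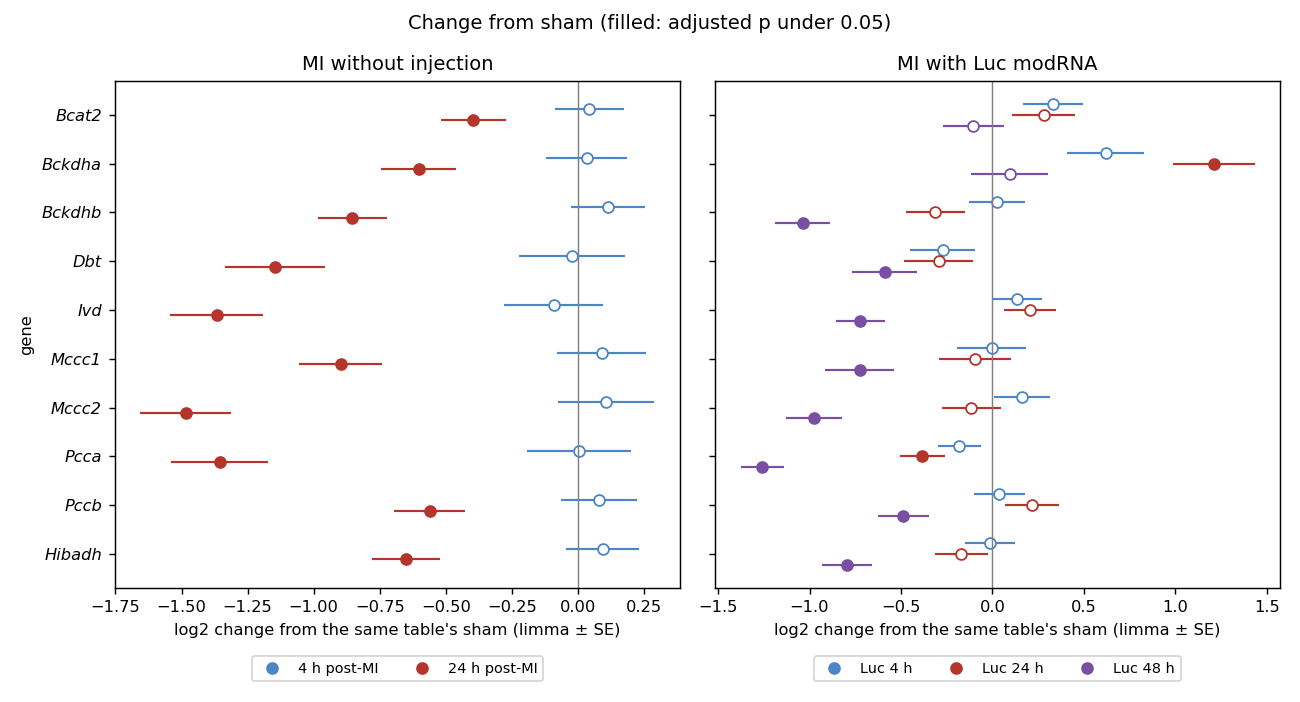
Limma's log2 change from the sham libraries of the same table, ± SE, for each of the 10 genes, in hearts without injection (left) and with Luc modRNA (right), with filled points for an adjusted p under 0.05. Without injection the 24 h points lie between -1.48 and -0.40, while with Luc the 24 h points scatter around 0 apart from Bckdha at 1.21 and the 48 h points of 8 genes lie between -1.26 and -0.49.

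From 24 h to 48 h with Luc, 9 of the 10 genes were called lower, against 32.6% of all genes, and Dbt was not (log2 change -0.30 ± 0.16, adjusted p = 0.134). The median was -0.71 for the 10 genes and -0.25 for all genes, so relative to all genes the 10 stood 0.47 lower. When the libraries were set to equal totals, the median of all genes became 0.18, 4 of the 10 genes were called, Bcat2 turned to 0.09 and the 10 genes stood 0.42 below all genes. Of all called genes 77.7% were lower in the deposited scaling, 51.0% under median-ratio rescaling and 22.5% under equal totals. The summed cardiomyocyte markers ranged from 88646 to 109686 CPM at 24 h and from 48213 to 67040 CPM at 48 h, and 9 of the 11 were called lower. The lists of the tricarboxylic acid cycle and of fatty acid oxidation had medians of -0.67 and -0.66. Myl7, an atrial myosin light chain absent from the table without injection and looked up after its values were seen, was at 0.095 CPM or less in sham, between 17.0 and 61.3 CPM in the Luc libraries of 24 h and between 1.49 and 20.6 CPM in those of 48 h. The part of these markers in the changes of the 10 genes was not tested.

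Of the 18 further enzymes, 14 were called lower than sham and 1 higher at 48 h with Luc, and at 24 h 0 lower and 1 higher. Bcat1 was the higher gene at both times, at 0.72 ± 0.13 CPM in sham (SD, n = 2), 3.52 ± 2.39 CPM at 24 h (n = 3) and 7.81 ± 2.59 CPM at 48 h (n = 4). Mut was at 126 ± 4.95, 119 ± 9.88 and 62.9 ± 9.70 CPM in these groups, with a log2 change of -1.01 ± 0.18 (SE, adjusted p = 0.000259) at 48 h. Slc7a5 was already higher at 24 h with Luc, at 22.2 ± 7.63 CPM against 4.15 ± 1.26 CPM in sham (log2 change 2.14 ± 0.31, adjusted p = 2.02e-05), and stood at 20.4 ± 7.31 CPM at 48 h.

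The regulators followed different courses with Luc. Ppm1k was at 83.8 and 82.5 CPM in sham and already at 43.7, 41.1 and 33.5 CPM at 24 h (log2 change -1.07 ± 0.31, adjusted p = 0.01), a time at which Pcca alone of the 10 genes was called lower. At 48 h its 4 libraries spread from 18.8 to 63.1 CPM (log2 change -1.14 ± 0.29, adjusted p = 0.00507). Klf15 was at 69.5 ± 6.94 CPM at 24 h (SD, n = 3) and 35.7 ± 5.24 CPM at 4 h, higher at 24 h by 0.95 on the log2 scale (adjusted p = 0.00113), and at 26.9 ± 4.57 CPM at 48 h. Its sham libraries were far apart at 39.6 and 80.0 CPM. Bckdk was called against sham at neither 24 h (log2 change 0.34 ± 0.18, adjusted p = 0.141) nor 48 h (-0.26 ± 0.17, adjusted p = 0.264).

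AC modRNA was then compared with Luc modRNA at the same time post-MI. The series title names sphingolipid metabolism, and Asah1, the gene of acid ceramidase, was between 5296 and 13703 CPM in the AC libraries of 4 h, between 104 and 305 CPM in those of 24 h and between 42.5 and 112 CPM in those of 48 h, against 21.4 to 28.2 CPM in all Luc libraries. Asah1 was looked up after its values were seen and separates the AC from the Luc libraries at each time.

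At 4 h and at 24 h, 0 of the 10 genes passed limma's test of AC against Luc, and 1 and 0 had an unadjusted p under 0.05. At each of these times 0.00796% of all 12555 genes were called in either direction. The gene at 4 h was Dbt (limma's log2 change 0.34 ± 0.15, unadjusted p = 0.0301). The log2 changes at 24 h lay between -0.40 for Bckdha and 0.04 for Hibadh. These values do not show that AC and Luc acted alike.

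At 48 h, 7 of the 10 genes were lower with AC than with Luc, against 3.27% of all genes called lower, and for 6 every AC library lay below every Luc library, against 3.58% of all genes. The median log2 change was -0.39 for the 10 genes and 0.14 for all genes. Under another scaling, by the median ratio of the libraries, 8 of the 10 were called and the 10 genes stood 0.54 below all genes, against 0.53 in the deposited scaling. Of all called genes 21.3% were lower in the deposited scaling, 49.4% under the median ratio and 16.7% under equal totals. Between 3 and 6 of the 10 were called when any single library of these groups was left out, with 3 without Luc library 1 and 4 without AC library 2. Where the 2 groups were fitted alone, 2 were called. A block for the library number left 1 called, although the labels do not say that the numbers pair the libraries.

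Bckdha showed the largest difference, at 99.2, 85.8, 74.9 and 87.8 CPM in the AC libraries 1, 2, 4 and 5 and at 159, 114, 150 and 136 CPM in the Luc libraries 1 to 4, a log2 change of -0.68 ± 0.17 (adjusted p = 0.0121). Ivd was at 100, 91.3, 96.3 and 92.3 CPM with AC and at 157, 134, 118 and 143 CPM with Luc, a log2 change of -0.53 ± 0.11 (adjusted p = 0.00283). Pcca was at 29.8, 27.0, 29.9 and 30.3 CPM with AC and at 45.7, 36.5, 35.8 and 37.9 CPM with Luc, a log2 change of -0.40 ± 0.10 (adjusted p = 0.00875). In these 3 genes every AC library lay below every Luc library, and the AC libraries of Pcca and Ivd were closer together than those of Bckdha.

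The other 4 called genes were Hibadh (-0.43 ± 0.11, adjusted p = 0.0122), Pccb (-0.39 ± 0.11, adjusted p = 0.0236), Bckdhb (-0.40 ± 0.12, adjusted p = 0.0343) and Mccc2 (-0.37 ± 0.12, adjusted p = 0.0479). Bcat2, Dbt and Mccc1 were not called, with log2 changes of -0.13, -0.20 and -0.33. Of the 18 further enzymes 7 were called lower, among them Aldh6a1 (log2 change -0.73 ± 0.16, adjusted p = 0.00507) and Echs1 (-0.56 ± 0.17, adjusted p = 0.0293). Bcat1 was the 1 further enzyme called higher, at 18.2 ± 4.14 CPM with AC against 7.81 ± 2.59 CPM with Luc (SD, n = 4 each, log2 change 1.16 ± 0.28, adjusted p = 0.00756). Klf15 was lower with AC (log2 change -0.59 ± 0.18, adjusted p = 0.0313), while Ppm1k (0.09 ± 0.24) and Bckdk (-0.19 ± 0.14) were not called.

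**Figure D5:**
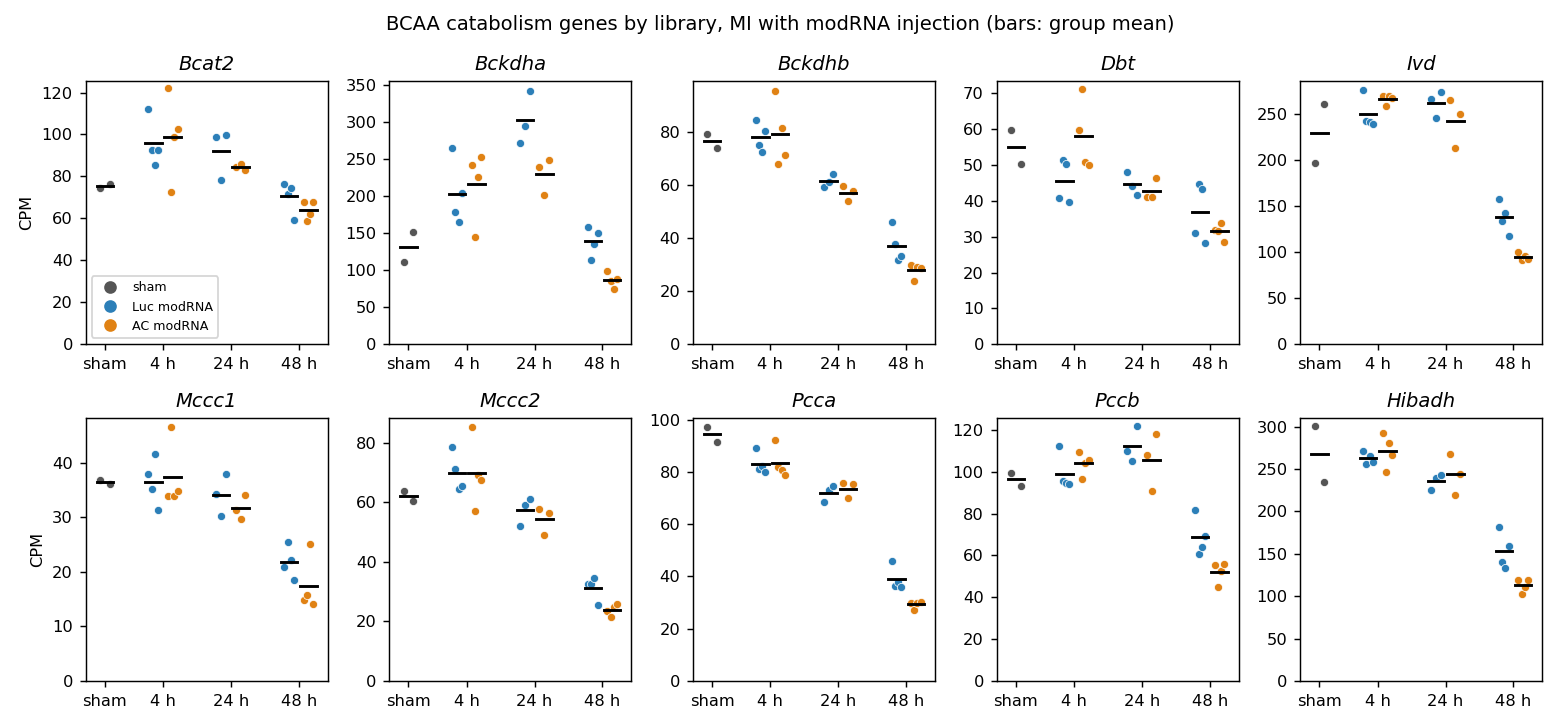
CPM of the 10 genes in each library of the injected hearts and their sham libraries, with grey points for sham, blue for Luc, orange for AC and a bar for the group mean. AC and Luc points overlap for every gene at 4 h and for all but Bckdha at 24 h. Of all 12555 genes at 24 h, 869 had every AC library below every Luc library and 303 above. At 48 h the AC points of 6 genes all lie below the Luc points, with Bckdha at 74.9 to 99.2 CPM against 114 to 159 CPM.

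Markers of other cells moved with AC at 48 h. The summed cardiomyocyte markers ranged from 35456 to 45565 CPM with AC and from 48213 to 67040 CPM with Luc, with 4 of 11 called lower, a median log2 change of -0.51 and no marker at 0 in all libraries of a group. The sum of 7 fibroblast markers ranged from 2085 to 3533 CPM with AC and from 877 to 1700 CPM with Luc, with 5 of 7 called higher. Of 10 neutrophil and monocyte markers, 3 were called higher with AC, which were Ccr2 (log2 change 2.12), Lyz2 (1.27) and Ptprc (0.88). None was called lower, although S100a8 (-0.90), S100a9 (-0.89), Cxcr2 (-0.51) and Cd14 (-0.17) had negative changes. The sums of this list overlapped, from 520 to 656 CPM with AC and from 308 to 674 CPM with Luc. The lists of fatty acid oxidation and of the tricarboxylic acid cycle had medians of -0.49, with 11 of 12 genes called lower, and -0.42, with 8 of 14. The part of cell composition in the difference between AC and Luc was not tested.

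Whether the AC difference itself changed with time was tested as an interaction. Between 48 h and 4 h, 1 of the 10 genes passed, against 0.47% of all genes called lower, and it was Ivd, whose AC minus Luc difference was 0.62 lower on the log2 scale at 48 h (SE 0.155, adjusted p = 0.0285). The call of Ivd was lost in 9 of 26 alternative fits. It was lost without AC library 3 or Luc library 2, 3 or 4 of 4 h, or without AC library 2, 4 or 5 or Luc library 1 of 48 h, each leaving 0 genes called, while 2 were called without AC library 2 of 4 h or Luc library 4 of 48 h. Between 48 h and 24 h, 0 of the 10 passed limma's test and 3 had an unadjusted p under 0.05, where 2.56% of all genes were called in either direction. Between 24 h and 4 h, 0 of the 10 passed and 0 had an unadjusted p under 0.05, where 0.00796% of all genes were called. The counts depended on the processing in both directions. Between 48 h and 4 h, 5 of the 10 were called under median-ratio rescaling and 8 with array weights, and between 48 h and 24 h, 3 were called under median-ratio rescaling and 1 each under equal totals and with array weights.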

How the data were processed

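RNA of mouse LV was sequenced in 34 libraries, and the deposited values are CPM, which the authors made from single 50-bp reads by alignment to mm10 with STAR, quantification on RefSeq transcripts in Partek and trimmed-mean scaling. The study's methods describe the first table, and how the second was made is not given in the sources used here. The deposited values of the second table begin at 1, and 1 was subtracted from each. Among the values of the first table, 82.7% of low values were whole multiples of what a single read is worth (tolerance 0.02), which gave estimated depths of 1.26e+07 to 1.90e+07 reads and a single read worth 0.0313 to 0.0479 CPM. The depth of the second table is unknown.

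Genes averaging 1 CPM or more over the libraries were tested (12487 and 12555), within a table only, by limma 3.58.1 with a trend in R 4.3.3 on log2(CPM + 1), with all groups of a table in 1 model and Benjamini-Hochberg adjustment over all genes tested in each of 14 comparisons. Fold changes are on this scale, which understates changes of low genes. A gene was called at an adjusted p under 0.05. Ratios were tested by a two-sided exact permutation test. Levels per kb used the median length of a gene's protein-coding GENCODE M21 transcripts that have a RefSeq match.

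The text names the 10 genes, the 3 regulators, 6 carriers, the 3 lowest and 3 highest other enzymes at 24 h among those averaging 10 CPM or more, and the 5 genes of most similar pattern. Some genes that this rule takes are not reported here. Members and lists were chosen with earlier results of these data known. In simulated data with 200 changed genes, 166 were recovered for 24 h post-MI against sham (100 of 100 changed 4-fold and 66 of 100 changed 2-fold, 12477 genes) and 184 for AC against Luc at 48 h (100 of 100 and 84 of 100, 12553 genes). There were 7 and 11 false calls. The simulation had a dispersion of 0.05, the same depth for every library and far fewer changed genes than were called in the real comparisons. It checks the script and does not give the power of these data. No libraries were identical, and replicates correlated at 0.940 to 0.996 across genes. Lists of fibroblast, endothelial, lymphocyte and erythrocyte markers were also read. Alternatives were other scalings, filters and pseudocounts, no trend, array weights, the compared groups alone, a replicate block, no subtraction and leaving out each library.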

Additional observations from a re-analysis of the deposited data

Results flagged for a closer look

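In groups of 4 libraries, 65 sets of values of the 10 genes and 3 regulators were searched for a value standing apart from its group, and 5 were found, where chance gives about 1 in 20. Luc library 1 of 4 h was highest for Ivd, at 277 CPM against 240 to 243 CPM in the other libraries of its group, and for Pccb, at 112 CPM against 94.1 to 95.5 CPM. For Mccc1, AC library 2 of 4 h was at 46.7 CPM against 33.8 to 34.8 CPM, and AC library 4 of 48 h at 25.0 CPM against 14.1 to 15.8 CPM. Pcca in AC library 2 of 48 h was at 27.0 CPM, against 29.8 to 30.3 CPM.

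The change from sham differed between 24 h and 4 h post-MI without injection for all 10 genes and the 3 regulators, each tested by limma within the table. Sham cancels here, so this is the comparison of 24 h with 4 h given above and no further test. In it 26.7% of all genes were called lower. The log2 differences were -0.44 for Bcat2, -0.64 for Bckdha, -0.97 for Bckdhb and -1.12 for Dbt. In the leucine arm they were -1.27 for Ivd, -0.99 for Mccc1 and -1.59 for Mccc2. They were -1.36 for Pcca, -0.64 for Pccb and -0.74 for Hibadh, and -0.49 for Bckdk, -2.25 for Ppm1k and -1.62 for Klf15.

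With Luc, the change between 4 h and 24 h passed the test for Bckdha (0.59), Ppm1k (-0.76) and Klf15 (0.95 on the log2 scale). Between 24 h and 48 h it passed for Bcat2 (-0.38), Bckdha (-1.12), Bckdhb (-0.73), Ivd (-0.93), Mccc1 (-0.63), Mccc2 (-0.86), Pcca (-0.88), Pccb (-0.70) and Hibadh (-0.63), and for the regulators Bckdk (-0.60) and Klf15 (-1.35). The difference between AC and Luc differed between 48 h and 4 h for Ivd, by -0.62 on the log2 scale.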

How the results depend on the processing

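The 10 genes called lower at 24 h post-MI against sham and against 4 h stayed at 10 under every alternative run, and leaving out any library gave 10 to 10. Counts for injected hearts moved. Under median-ratio rescaling, 4 genes were called between Luc 24 h and 4 h, 5 in AC minus Luc at 48 h against 4 h and 3 at 48 h against 24 h. Under equal totals, 5 were called for Luc 24 h against sham, 4 for Luc 24 h against 4 h, 4 for Luc 48 h against 24 h, where Bcat2 turned from -0.38 to 0.091, and 1 for AC minus Luc at 48 h against 24 h. With the compared groups alone, 1 was called for Luc 24 h against sham, 5 for Luc 48 h against sham, 2 for Luc 24 h against 4 h and 2 for AC against Luc at 48 h. With array weights, the counts were 3 for Luc 24 h against 4 h, 8 for AC minus Luc at 48 h against 4 h and 1 at 48 h against 24 h. The causes were not tested.

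For each gene, the mean of the group was taken off the log2 values. What remained correlated between -0.26 and 0.34 for same-numbered libraries of different groups. Not every pair was above 0.1 and the labels tie the numbers to nothing shared, so the numbers were not taken to pair the libraries. By these deviations from the group mean at 48 h, Luc libraries 1 and 4 correlated best with the AC library of their own number. Luc library 2 did not, so a pairing of some libraries was not settled. With the replicate block, 1 gene was called for AC against Luc at 48 h, 1 for Luc 48 h against sham and 0 for AC minus Luc at 48 h against 4 h.

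Leaving out single libraries gave 3 to 6 genes for AC against Luc at 48 h, 0 to 2 for AC minus Luc at 48 h against 4 h, 0 to 1 for Luc 24 h against 4 h, 1 to 2 for Luc 24 h against sham, 8 to 9 for Luc 48 h against 24 h and 5 to 8 for Luc 48 h against sham. The log2 ratio of Bckdk to Bckdha at 24 h ranged from -0.025, without 24 h library H, to 0.042. Of 3263 refitted values of single genes, 3125 kept direction and side of the threshold, 95 lost a call, 42 gained one and 1 turned.

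Rescaling also moved the share of lower among all called genes, from 54.6% to 49.5% and 33.9% for Luc 48 h against sham, from 24.1% to 47.6% and 51.8% for Luc 24 h against 4 h, from 14.01% to 41.2% and 8.75% for AC minus Luc at 48 h against 4 h, from 13.0% to 44.3% and 24.0% at 48 h against 24 h, and from 34.5% to 32.9% and 51.2% for 4 h post-MI against sham, for the median ratio and equal totals in turn. For Luc 4 h against sham it went from 19.1% to 22.7% and 29.8%. The unknown depth of the second table and its 2 sham libraries limit the precision there.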

Other observations

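Markers of other cells also differed in the first table at 24 h post-MI. Of 7 fibroblast markers, 3 were called lower than sham and 0 higher, with a median log2 change of -0.46. Of 5 endothelial markers, 2 were called lower and 1 higher, of the erythrocyte markers 0 of 5 were called by limma and 0 had an unadjusted p under 0.05, and of the lymphocyte markers 1 of 5 passed the filter on low values and was called higher. In the second table, the summed erythrocyte markers ranged from 2436 to 10695 CPM in the AC libraries of 4 h and from 1723 to 2581 CPM in the Luc libraries of 4 h, against 196 to 647 CPM in sham.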
